A study of Mus musculus with 9 samples.

Results

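The genes described here are 8 genes of cholesterol synthesis: Srebf2, Hmgcs1, Idi1, Fdft1, Sqle, Lss, Cyp51 and Dhcr7. They were taken by name, through their Entrez identifiers, from the 18755 genes of a raw count table of 4T1 primary tumors, and each of the 8 had a row in it. 4T1 is a mouse mammary carcinoma cell line. For every tumor 1000000 cells had been injected into a mammary fat pad of a female BALB/c mouse aged 6 to 10 weeks. The table held 3 tumors of mice given vehicle, 0.5% Natrosol (a cellulose gel, replicates 1 to 3), and 6 tumors of mice given BI 853520 at 50 mg/kg in that vehicle (BI in the following, replicates 4 to 9). BI 853520 is an inhibitor of focal adhesion kinase (FAK), a kinase that relays signals from integrins. Treatment ran for 5 consecutive days from day 15 after injection, and 1 time point was sampled. The comparison addresses how transcripts of the tumors differ after FAK inhibition. Each library was made from a piece of whole tumor and holds the RNA of the injected cells together with that of the host cells in it. Per the study, tumors whose RNA quality was not sufficient had been left out. The labels do not say more of how the tumors were handled in the groups, so that p-values measure the spread between these libraries.

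Cells build cholesterol from acetyl-CoA. The mevalonate pathway first makes isoprene units, which are joined into squalene, and squalene is closed into lanosterol and trimmed to cholesterol. Most genes of the route are activated by SREBP-2, the transcription factor encoded by Srebf2. When sterols in the endoplasmic reticulum are scarce, SCAP escorts SREBP-2 to the Golgi, where proteases set its active part free, and INSIG proteins hold the complex back when sterols are plentiful. Dividing cells need cholesterol for new membrane, and macrophages that take up lipid export it through ABC transporters.

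SREBP-2 binds sterol regulatory elements, usually beside sites for NF-Y (the CCAAT box) and SP1 (the GC box). RefSeq windows on GRCm38.p6, which run from 250 bases before to 50 bases after an annotated start, were given for 6 of the 8 genes. Fdft1 and Sqle had none. The windows were searched on both strands for the core of such an element, TCACNCCAC, for CCAAT and for GGGCGG. None of these words contains another. The 150 bases before the start are printed 5′ to 3′ in the direction of the gene. Every match of the 3 words or of their reverse complements is in capitals, so that its place can be seen. Dhcr7 has 3 annotated starts, and the window with most matches is shown.
Srebf2, chr15:82147119-82147268 (+): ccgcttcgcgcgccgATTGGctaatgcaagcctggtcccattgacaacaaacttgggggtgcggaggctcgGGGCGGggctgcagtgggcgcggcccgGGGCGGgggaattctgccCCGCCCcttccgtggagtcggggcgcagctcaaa
Hmgcs1, chr13:119690201-119690350 (+): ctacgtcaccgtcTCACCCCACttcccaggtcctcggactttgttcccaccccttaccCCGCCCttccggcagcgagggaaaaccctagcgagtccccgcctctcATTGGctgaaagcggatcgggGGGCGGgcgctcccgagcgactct
Idi1, chr13:8885456-8885605 (+): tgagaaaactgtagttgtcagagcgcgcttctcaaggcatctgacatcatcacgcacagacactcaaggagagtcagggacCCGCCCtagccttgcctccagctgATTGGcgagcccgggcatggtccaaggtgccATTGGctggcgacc
Lss, chr10:76531455-76531604 (+): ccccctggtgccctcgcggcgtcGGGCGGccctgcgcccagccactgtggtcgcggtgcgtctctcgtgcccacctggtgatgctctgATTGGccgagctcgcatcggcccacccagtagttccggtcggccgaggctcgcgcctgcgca
Cyp51, chr5:4104698-4104847 (-): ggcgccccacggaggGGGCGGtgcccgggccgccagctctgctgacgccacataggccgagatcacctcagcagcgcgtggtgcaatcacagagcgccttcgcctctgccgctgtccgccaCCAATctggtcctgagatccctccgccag
Dhcr7, chr7:143830064-143830213 (+): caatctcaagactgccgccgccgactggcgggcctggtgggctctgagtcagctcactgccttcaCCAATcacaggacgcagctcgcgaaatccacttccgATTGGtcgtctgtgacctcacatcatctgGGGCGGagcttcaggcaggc

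Counted by gene, a CCAAT box was in a window of each of the 6 genes, against 41.1% of the 27025 genes with a window, and a GC box in a window of each of the 6, against 38.2%. For Dhcr7 the CCAAT box was in 1 of its 3 windows, the one shown, and the GC box in 2. In the stretches shown, the CCAAT box nearest to the start reads as its reverse complement, ATTGG, in Srebf2, Hmgcs1, Idi1, Lss and Dhcr7, and forward in Cyp51. The core word of the sterol regulatory element was found for 1 of the 6 genes, Hmgcs1 (TCACCCCAC), at -137 to -129 from the start, against 1.44% of genes. Of the 12 other enzymes of the route described further on, 11 had a window, of which 10 held a CCAAT box, 10 a GC box and 0 the core word. A match is a run of letters and not a shown binding site, and a missing match says only that these letters are not in the window.

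Total counts per tumor lay between 16931607 and 33850245. The 3 vehicle libraries held from 21727879 and the 6 BI libraries up to 22349873, with the deepest library, vehicle replicate 3, apart from the others. Levels are given as counts per 1000000 counts of the library (CPM), with library sizes normalized by TMM, and fold changes are BI over vehicle on the log2 scale from the quasi-likelihood test of edgeR, adjusted by Benjamini-Hochberg over the 13966 genes with enough counts to be tested. Genes at an adjusted p of at most 0.05 are called changed. Of the genes tested, 14.1% were called lower in BI tumors and 14.6% higher, and the median log2 fold change of all was -0.0037.

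Transcripts of 4 of the 8 cholesterol genes were lower in BI tumors: Fdft1, Lss, Dhcr7 and Sqle, by 20.6% to 29.9%. None was called higher. Srebf2, Idi1 and Cyp51 did not pass the test, with log2 fold changes of -0.22, -0.53 and -0.27. Hmgcs1 had too few counts to be tested. The 7 genes tested had a median log2 fold change of -0.37 and ranged from -0.53 to -0.22. The 4 lower calls compare with a background of 14.1% of all genes tested.

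**Figure D1:**
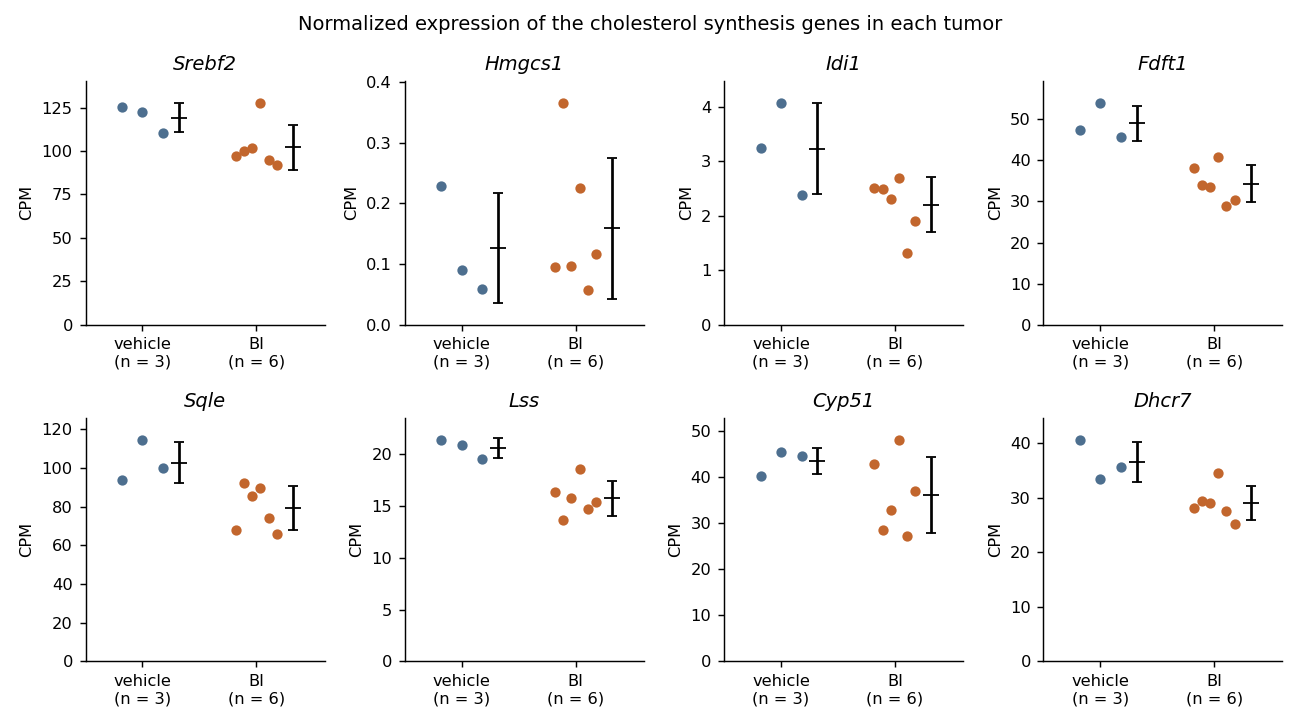
Normalized expression (CPM, vertical axis from 0, with its own scale in each panel) of the 8 cholesterol synthesis genes in 3 vehicle and 6 BI tumors. Each point is 1 tumor in replicate order, and the bar beside it gives the mean ± SD. All BI tumors lie below all vehicle tumors for Fdft1, Sqle and Lss, and Hmgcs1 stays below 0.4 CPM.

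Srebf2 (Entrez 20788; mm9 chr15:81977696-82035806, plus strand) encodes the regulator of the route. Its level was 125, 122 and 110 CPM in vehicle replicates 1 to 3, and 97.3, 99.9, 102, 127, 94.6 and 91.9 CPM in BI replicates 4 to 9. Of the BI tumors, 5 were below every vehicle tumor, while BI replicate 7 was above them all. The log2 fold change was -0.22 (SE 0.094, 95% interval -0.43 to -0.017), with an adjusted p of 0.0975. Without BI replicate 7 it was -0.29 with an adjusted p of 0.00707. In 15 of the 16 alternatives tried Srebf2 stayed uncalled. Without vehicle replicate 1 the log2 fold change was -0.19 with an adjusted p of 0.270, and without vehicle replicate 2 it was -0.20 with 0.223.

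Hmgcs1 (Entrez 208715) encodes the cytosolic HMG-CoA synthase, which condenses acetoacetyl-CoA with acetyl-CoA at the head of the mevalonate pathway. It had 5, 2 and 2 counts in the vehicle tumors and 2, 7, 2, 5, 1 and 2 counts in the BI tumors. Those values lie around the floor of 3 counts, and no fold change is given. The promoter sequence of Hmgcs1 was found in mm9 on 2 unplaced contigs rather than on a chromosome. The gene span of 17910 bases was cut into all windows of 50 bases, the length of a read, and 0% of the windows occurred once in the genome, with 96.1% at 2 places and 3.86% at more. The authors had kept only reads that aligned to a single place. This check looked for exact matches of single windows and not for read pairs, and its part in the low counts was not tested.

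Idi1 (Entrez 319554; chr13:8884852-8891641, plus strand) encodes the isomerase that interconverts the isoprene units. It had 71, 91 and 81 counts in the vehicle tumors, or 3.25, 4.07 and 2.39 CPM. The BI tumors had 53, 48, 48, 60, 23 and 33 counts, or 2.5, 2.5, 2.32, 2.70, 1.31 and 1.91 CPM. Vehicle replicate 3 lay inside the range of the BI tumors, and BI replicate 8 was the lowest. The log2 fold change was -0.53 (SE 0.24, 95% interval -1.06 to -0.0099) with an adjusted p of 0.116. Only 15.6% of the 50-base windows of its exons occurred once in mm9.

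**Figure D2:**
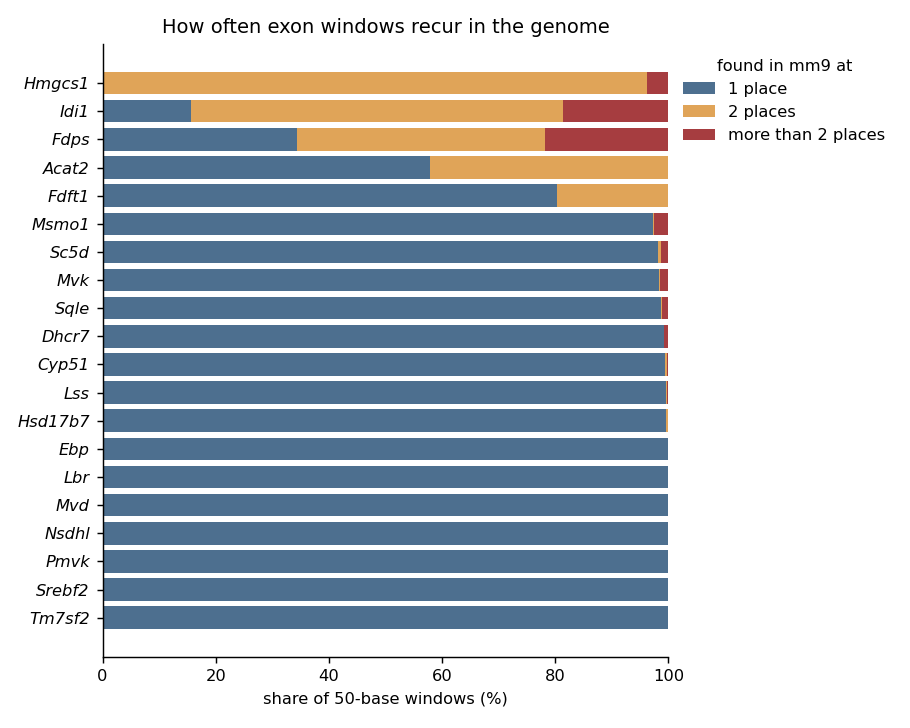
Share of 50-base windows (horizontal axis, %) of the annotated exons of each cholesterol gene, or of the gene span for Hmgcs1, that occur at 1, at 2 or at more than 2 places in mm9. Hmgcs1 has 0%, Idi1 15.6%, Fdps 34.5%, Acat2 57.8% and Fdft1 80.3% of windows at 1 place, and the other genes have 97.3% or more.

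Fdft1 (Entrez 14137; chr14:63763990-63796630, minus strand) encodes squalene synthase, the enzyme that commits isoprene units to sterols. Its level was 47.4, 53.9 and 45.8 CPM in the vehicle tumors and 38.1, 34.0, 33.6, 40.7, 29.0 and 30.3 CPM in the BI tumors. The highest BI tumor, replicate 7, was below the lowest vehicle tumor. The transcript fell by 29.9%, with a log2 fold change of -0.51 (SE 0.10, adjusted p = 0.00355). On the GENCODE annotation of mm9 an exon of Fdft1 overlaps Ctsb, a lysosomal protease gene on the other strand. The authors counted on RefSeq exons instead. Ctsb was higher in BI tumors, with a log2 fold change of 0.51 (SE 0.13, adjusted p = 0.0104). Its means were 1822 CPM in vehicle and 2601 CPM in BI tumors. The library kit keeps the strand, but whether the counting used it is not given in the sources used here.

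Sqle (Entrez 20775; chr15:59146632-59162747, plus strand) encodes squalene epoxidase, a rate-limiting step of the later route. Its mean level per length was the highest of these genes in both groups, but it overlapped that of Srebf2 in the BI tumors. The vehicle tumors had 93.7, 115 and 100 CPM, and the BI tumors 68.2, 92.4, 85.4, 89.8, 74.3 and 66.0 CPM. The groups did not overlap, but BI replicate 5 came close to vehicle replicate 1. The transcript fell by 22.8%, with a log2 fold change of -0.37 (SE 0.11, adjusted p = 0.0261). The call was lost without vehicle replicate 2 (adjusted p = 0.124), vehicle replicate 3 (0.0652) or BI replicate 8 (0.0530).

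Lss (Entrez 16987; chr10:75994333-76019883, plus strand) encodes the cyclase that closes the ring system to lanosterol. It had 21.4, 20.8 and 19.5 CPM in the vehicle tumors and 16.3, 13.7, 15.7, 18.6, 14.7 and 15.4 CPM in the BI tumors. The groups did not overlap, with BI replicate 7 nearest to the vehicle tumors. The transcript fell by 23.3%, with a log2 fold change of -0.38 (SE 0.094, adjusted p = 0.0107). The call was kept without any 1 tumor, but narrowly without vehicle replicate 1 (adjusted p = 0.0470). On the GENCODE annotation, not the RefSeq one used for counting, exon sequence of Lss overlaps 4930483K19Rik on the other strand. Whether counted exons overlap, and the part of this in the counts, was not tested.

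Cyp51 (Entrez 13121; chr5:4081145-4104746, minus strand) encodes lanosterol demethylase. Its level was 40.2, 45.6 and 44.8 CPM in the vehicle tumors and 42.9, 28.5, 32.9, 48.2, 27.2 and 37.0 CPM in the BI tumors. The BI tumors spread more widely than the vehicle tumors (SD 8.25 against 2.89 CPM), with replicate 7 above and replicate 4 among the vehicle tumors. The log2 fold change was -0.27 (SE 0.16, 95% interval -0.61 to 0.076), with an adjusted p of 0.225.

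Dhcr7 (Entrez 13360; chr7:151009050-151034315, plus strand) encodes the reductase of the last step in one branch of the route. The vehicle tumors had 40.7, 33.5 and 35.7 CPM, and the BI tumors 28.2, 29.5, 29.1, 34.7, 27.6 and 25.2 CPM. BI replicate 7 alone exceeded the lowest vehicle tumor. The transcript fell by 20.6%, with a log2 fold change of -0.33 (SE 0.096, adjusted p = 0.0225). The call was lost without vehicle replicate 1 (adjusted p = 0.118) or vehicle replicate 3 (0.0578).

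In the study's terms, an unadjusted p of at most 0.05 with a change of at least 1.5-fold, 0 of the 7 genes tested counted as lower or higher, against 3.57% and 9.59% of all genes tested. Groups that did not overlap were seen for 3 of the 7 genes (Fdft1, Sqle and Lss), each with the BI tumors lower. Over all genes tested, the BI tumors lay below all vehicle tumors for 14.0% and above them for 14.1%.

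Per kilobase of the deposited gene length, the order of the levels in vehicle tumors was Sqle (37.4 ± 3.89 CPM per kb, SD, n = 3), Srebf2 (26.1 ± 1.77), Fdft1 (17.1 ± 1.5), Dhcr7 (13.0 ± 1.29), Cyp51 (10.003 ± 0.663), Lss (6.63 ± 0.314), Idi1 (1.13 ± 0.294) and Hmgcs1 (0.019 ± 0.014). In the vehicle tumors no neighbours in this order overlapped. In the BI tumors the order of the means was the same, but Sqle overlapped Srebf2, Fdft1 overlapped Dhcr7 and Dhcr7 overlapped Cyp51. Idi1 and Hmgcs1, the lowest of the order, are also those with the smallest shares of windows that occur once.

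Another 12 enzymes of the route were examined, and 7 of them were lower in BI tumors, 0 were higher and 5 did not pass the test. Over all genes tested, 14.1% were called lower and 14.6% higher. This list and those that follow were chosen with earlier results of these data known, which limits the comparison with all genes. The 12 enzymes had a median log2 fold change of -0.43. Acat2, the thiolase that makes acetoacetyl-CoA, had a log2 fold change of -0.80 (SE 0.095, adjusted p = 0.000136), from 26.0 ± 1.46 CPM (SD, n = 3) to 14.9 ± 1.65 CPM (SD, n = 6). Fdps, which makes farnesyl diphosphate, had -0.70 (SE 0.17, adjusted p = 0.00914), from 19.2 ± 1.91 to 11.8 ± 2.77 CPM. Both had all BI tumors below all vehicle tumors. This held for 7 of the 12 enzymes, against 14.0% of all genes tested.

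Of the enzymes that trim lanosterol, Hsd17b7, Sc5d, Msmo1, Ebp and Lbr were lower, while Tm7sf2, Nsdhl and Cyp51 did not pass the test. The log2 fold change was -0.66 for Hsd17b7, a ketosteroid reductase (adjusted p = 0.00022), -0.48 for Sc5d, a desaturase (0.00287), -0.46 for Msmo1, which removes methyl groups (0.0138), and -0.40 for Ebp, a sterol isomerase (0.00343). Lbr, a nuclear membrane protein that is also a sterol reductase, had -0.47 (adjusted p = 0.000803). The groups overlapped for 0 of the 5 lower ones, but these were called on the same tumors, so that this adds no support. By contrast the kinases Mvk and Pmvk had log2 fold changes of -0.052 and -0.051, and Mvd, the decarboxylase after them, had 0.11, with 95% intervals of -0.30 to 0.19, -0.34 to 0.24 and -0.29 to 0.52. Tm7sf2, a second sterol reductase, had 0.16 (-0.19 to 0.52), and Nsdhl, a dehydrogenase, had -0.20 (-0.40 to -0.0071, adjusted p = 0.111). On the GENCODE annotation, not the RefSeq one used for counting, exon sequence of Tm7sf2 overlaps 1110014N23Rik on the same strand. The part of this in the counts was not tested. Acat2, Fdps and Hsd17b7 passed the study's cutoffs. Windows of 50 bases occurred once for 57.8% of Acat2 and for 34.5% of Fdps.

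**Figure D3:**
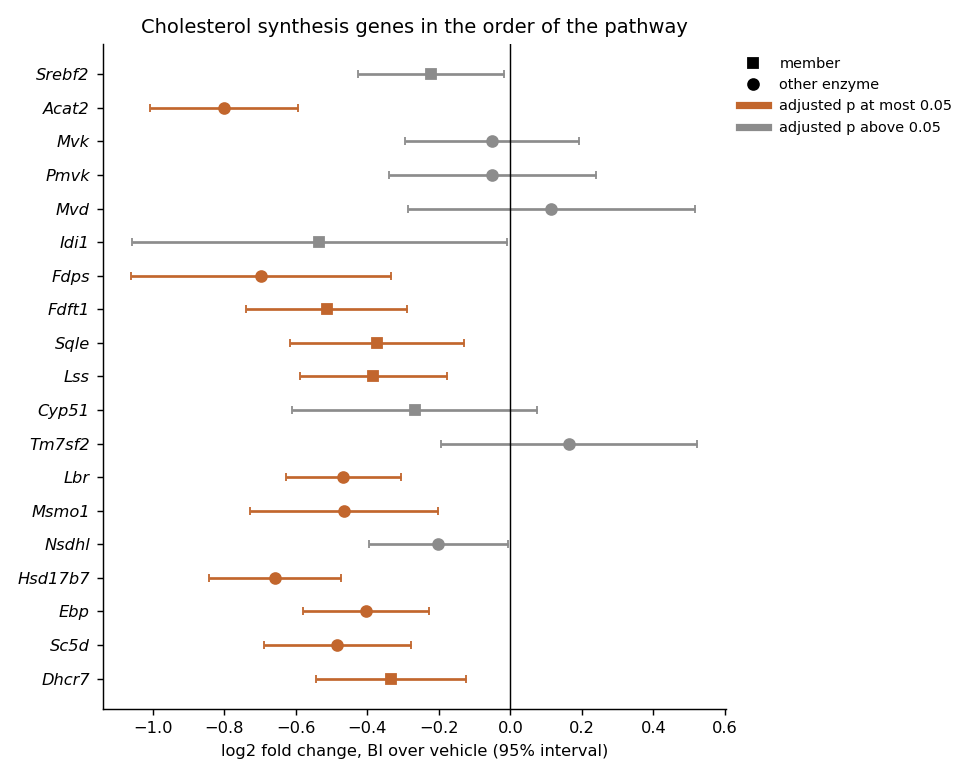
Log2 fold change of BI over vehicle tumors (horizontal axis) with its 95% interval for Srebf2 and 18 enzymes in the order of the route from top to bottom, from edgeR on 3 and 6 tumors. Squares are the 7 genes of the set described, circles the 12 other enzymes, and filled colour marks an adjusted p of at most 0.05. Of the intervals, 11 lie below 0 with that colour, and Mvk, Pmvk, Mvd and Tm7sf2 lie around 0.

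The BI tumors differed among themselves in these genes. BI replicate 7 had the highest level of the BI tumors in 6 of the 7 genes tested and in 11 of the 19 genes with the other enzymes, and BI replicates 8 and 9 had the lowest in 3 each of the 7. Relative to the vehicle mean, the median over the 19 genes was -0.19 (log2) in BI replicate 7 and -0.30 in BI replicate 4. It was -0.47, -0.40, -0.48 and -0.42 in BI replicates 5, 6, 8 and 9. The vehicle tumors had medians of 0.0077, 0.037 and -0.078. All 6 BI tumors were below all vehicle tumors by this median. It takes in the genes called lower on the same tumors, so that this adds no support. Among the vehicle tumors, replicate 3 was the lowest in 4 of the 7 genes.

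**Figure D4:**
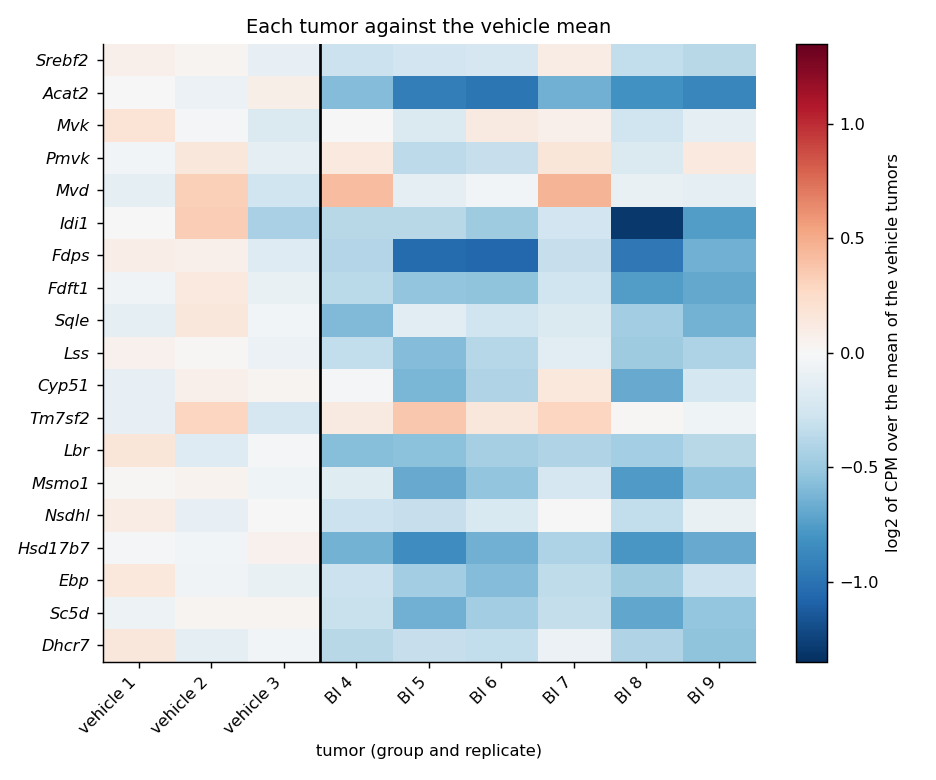
Level of Srebf2 and 18 enzymes of the route (rows) in each of the 9 tumors (columns), as log2 of CPM over the mean of the 3 vehicle tumors, with blue for lower and red for higher. The line separates vehicle from BI tumors. The medians of the columns run from -0.078 to 0.037 in vehicle and from -0.48 to -0.19 in BI tumors, with BI replicate 7 the palest of these.

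The average profile of the 7 genes over the 9 tumors (log2 CPM, each gene scaled to a mean of 0 and an SD of 1) was compared with that of 12179 other genes by the root mean square difference. Of the 5 nearest, 3 are given here. They were Inafm1 at 0.279, Farp1 at 0.291 and Casp12 at 0.358. Within the set, which enters the average, Fdft1 was nearest at 0.224 and Cyp51 farthest at 0.641. All of these share the 9 libraries, and the likeness is a description.

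Genes that process and control SREBP were lower in 4 of 8 cases, and 0 were higher, against 14.1% and 14.6% of all genes tested. The median of the 8 was -0.17. Insig1, a retention factor and itself an SREBP target, had the largest change, with a log2 fold change of -0.74 (SE 0.17, adjusted p = 0.0081), from 62.2 ± 10.6 CPM to 37.1 ± 8.92 CPM. Mbtps2, the second protease that cuts SREBP, had -0.33 (adjusted p = 0.00485), Insig2 had -0.26 (0.00625), and Rnf139, a ubiquitin ligase of the endoplasmic reticulum, had -0.21 (0.0132). The calls of Insig1 without vehicle replicate 1 (adjusted p = 0.0517) and of Rnf139 without vehicle replicate 3 (0.0681) were lost. The members that moved include retention factors and a protease that frees SREBP, so that the list holds opposing roles.

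Of the genes of fatty acid synthesis 3 of 11 were lower and 0 higher, with a median of -0.12, against 14.1% and 14.6% of all genes tested. The 3 were the desaturase Fads2 (log2 fold change -0.68, adjusted p = 0.00135), the elongase Elovl6 (-0.44, adjusted p = 0.0202) and the acetyl-CoA synthetase Acss2 (-0.26, adjusted p = 0.0251). Without vehicle replicate 1 the calls of Elovl6 (adjusted p = 0.124) and Acss2 (0.106) were lost, and without vehicle replicate 2 that of Acss2 (0.0638). The branches that take isoprene units to other products had 1 of 11 lower, Pdss1 of ubiquinone synthesis (-0.38, adjusted p = 0.0382), and 1 higher, Fnta, a subunit of protein prenyltransferases (0.19, adjusted p = 0.0239). The call of Pdss1 was lost with library size only (adjusted p = 0.0502) and without vehicle replicate 1 or 3 or BI replicate 6 or 7 (up to 0.149), and that of Fnta without vehicle replicate 1 or 3 (up to 0.102). The median of 0.013 of these branches was close to that of all genes. Their share called in each direction, 9.09%, is 1 gene of 11. That is too few to set apart from the 14.1% lower and 14.6% higher of all genes tested.

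Genes of sterol efflux, storage and oxysterols went the other way, with 6 of 11 higher and 0 lower. Over all genes tested, 14.6% were called higher and 14.1% lower. Abca1, an exporter of cholesterol, had 132 ± 10.99 CPM in vehicle tumors and 240 ± 18.5 CPM in BI tumors, a log2 fold change of 0.87 (SE 0.078, adjusted p = 3.4e-05). Abcg1, another exporter, rose from 34.96 ± 2.31 to 87.0 ± 10.4 CPM, a log2 fold change of 1.32 (SE 0.10, adjusted p = 1.3e-05). Cyp27a1, which makes an oxysterol, had 1.39 (adjusted p = 0.000126), and Lipa, the lysosomal lipase that frees cholesterol from its esters, had 0.54 (0.000418). For 6 of the 11, these 4 among them, all BI tumors lay above all vehicle tumors, against 14.1% of all genes tested. The median of 0.54 over the list stands beside -0.37 for the 7 cholesterol genes tested. Macrophage markers, described below, had a median of 0.91 in the same libraries, and their part in this list was not tested.

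**Figure D5:**
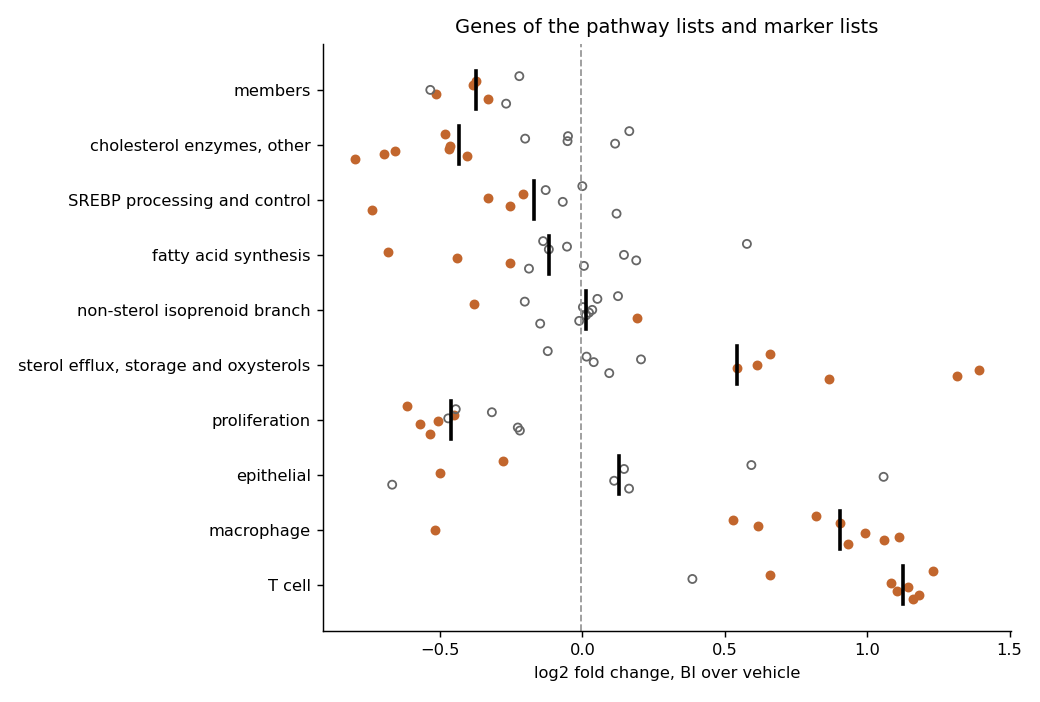
Log2 fold change of BI over vehicle tumors (horizontal axis) for the genes tested of 10 lists, each point 1 gene, filled where the adjusted p was at most 0.05. Thick lines are medians of the lists, and the dashed line is the median of all genes tested. The cholesterol lists have medians of -0.37 and -0.43, the efflux list 0.54, proliferation -0.46 and macrophages 0.91.

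Markers of cells and of cell division moved in the same libraries. Their calls stand beside 14.1% lower and 14.6% higher over all genes tested. In bulk tumors fewer cells of a type and less RNA per cell cannot be told apart. The summed level of 9 macrophage genes was 2082 to 2690 CPM in vehicle and 3821 to 4540 CPM in BI tumors, with 8 of 9 higher, among them C1qb and Csf1r (log2 fold changes of 1.11 and 0.91), and Cd14 lower (-0.52). That of 8 T cell genes was 60.6 to 63.8 CPM against 106 to 152 CPM, with 7 of 8 higher. Of 10 proliferation genes 5 were lower, among them Top2a with a log2 fold change of -0.62 (adjusted p = 0.00322), and their sum was 1895 to 2607 CPM in vehicle and 1270 to 1959 CPM in BI tumors, which overlap. Of 8 epithelial markers 2 were lower, Krt18 and Krt8 (log2 fold changes of -0.50 and -0.28), and 0 higher, but 5 of the 8 had a fold change above 0 and the median of the list was 0.13. Their sums were 963 to 1191 CPM in vehicle and 758 to 967 CPM in BI tumors, mostly of Krt8 and Krt18. Epcam lay between 1.5 and 10.3 CPM in the 9 tumors, with a log2 fold change of 1.06 that did not pass the test (adjusted p = 0.0987). The 8 fibroblast genes summed to 1904 to 3314 and 2531 to 5690 CPM with 1 higher (Col1a2, 0.92), and the 7 adipocyte genes to 53.7 to 76.0 and 76.6 to 291 CPM with 1 higher (Lipe, 0.39). In BI replicates 4 to 9 the macrophage sums were 4274, 4468, 4418, 4540, 3821 and 4228 CPM. The epithelial sums were 954, 967, 760, 758, 845 and 786 CPM. The proliferation sums were 1796, 1270, 1512, 1633, 1820 and 1959 CPM. In the same order, the medians of the 19 cholesterol genes were -0.30, -0.47, -0.40, -0.19, -0.48 and -0.42. The part of the marker shifts in the cholesterol genes and in those of sterol efflux, storage and oxysterols was not tested.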

How the data were processed

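RNA sequencing of whole 4T1 tumors (3 vehicle, 6 BI 853520) was analysed from deposited raw counts per gene. Per the labels and the study's methods, stranded paired-end reads were aligned by the authors with STAR (mm9), only those that aligned to 1 place were kept, and reads starting in exons of RefSeq genes were counted with QuasR. The counts were not normalized. The deposited gene length was used only for levels per kilobase.

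Groups came from the labelled agent. From there, edgeR 4.0.16 in R 4.3.3 was used: TMM normalization (factors 0.984 to 1.02), the filter filterByExpr (minimum count 10, minimum total 15), and a quasi-likelihood F test between BI and vehicle tumors with no covariate, adjusted by Benjamini-Hochberg over 13966 of 18755 genes. The study's cutoffs were applied as a further rule. Intervals of fold changes are 95%. Total counts of 16931607 to 33850245 put the floor of 3 counts at 0.0886 to 0.177 CPM, for counting error only. No 2 libraries of a group agreed within sampling noise.

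Symbols were matched through RefSeq (18700 of 18755 identifiers). Positions came from GENCODE on mm9, and promoter sequences from RefSeq on GRCm38.p6. Exon windows of 50 bases were counted in the mm9 genome by exact match on both strands. Except for Hmgcs1, windows and overlaps came from GENCODE exons, which can hold sequence outside the RefSeq exons counted by the authors. For Lss there were 9758 windows, against a deposited gene length of 3102 bases. The text names the 8 genes, 12 other enzymes, and up to 4 called genes per list and direction by smallest p in the other lists. It also names 3 of the 5 genes most like the set among those with mean log2 CPM from 1 upward. Outside that rule are the overlapping genes Ctsb, 4930483K19Rik and 1110014N23Rik. Epcam was named after its values were seen. The genes and the 11 further lists were chosen with earlier results of these data known. Some genes are not reported here. Alternatives were RLE factors, library size only, no filter, at least 1 CPM in 3 tumors, DESeq2 1.42.0, limma-voom (limma 3.58.1), edgeR's likelihood ratio test, and leaving out each tumor.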

Additional observations from a re-analysis of the deposited data

Results flagged for a closer look

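Among 32 named genes, the 6 BI tumors of each were searched for a tumor far from the others by Dixon's ratio, the gap to the nearest tumor over the whole range. Chance marks about 1 in 20 groups, and 2 were marked. Srebf2 in BI replicate 7 stood at 127 CPM against 91.9 to 102 CPM in the other 5, a ratio of 0.722. Lipa in BI replicate 5 stood at 101 CPM against 81.2 to 88.3 CPM, a ratio of 0.647.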

How the results depend on the processing

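The counts of cholesterol genes called lower (4), past the study's cutoffs (0) and without overlap between groups (3) were the same under the normalizations, filters and tests tried, as far as each could give one. Leaving out a tumor gave 2 to 5 lower, with 2 without vehicle replicate 3, 0 to 1 past the cutoffs, with 1 without vehicle replicate 3 and 1 without BI replicate 7, and 3 to 5 without overlap, with 5 without BI replicate 7. The 7 lower calls among the other enzymes were counted in all 16 alternatives. Msmo1 came close to losing its call without vehicle replicate 1 (adjusted p = 0.0485) and without vehicle replicate 2 (0.0499). Of 512 values of 32 genes under 16 alternatives, 490 kept direction and side of the threshold, 17 lost the call, 1 gained it (Srebf2) and 4 changed sign, none of these called: Mvk (-0.15 to 0.048 over the tumors left out, the highest without vehicle replicate 1), Pmvk (-0.11 to 0.028, above 0 without vehicle replicate 2 and, at 0.0027, without BI replicate 5) and Mvd (-0.0097 to 0.30, the lowest without vehicle replicate 3). Calls were lost for Sqle, Dhcr7, Insig1, Rnf139, Elovl6, Acss2, Fnta and Pdss1, with the values given beside them. The cause was not tested. No paired analysis was made because the labels give no pairing of tumors between the groups. With 3 vehicle tumors, 1 dose, 1 time point and whole tumor pieces, the data cannot place the change in a cell type. Hmgcs1 was near the floor, and nothing is said of its direction. The intervals of Cyp51 and of Mvk, Pmvk, Mvd and Tm7sf2 leave room for changes in either direction.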
